A study of Homo sapiens with 8 samples.

Results

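The proteins that carry the interleukin-1 (IL-1) signal from the cell surface to the kinases that activate NF-κB and MAPK were examined at the level of their transcripts. The 10 genes were named by function: the receptors IL1R1 and IL1RAP, the adaptor MYD88, the receptor-associated kinases IRAK1, IRAK2, IRAK3 and IRAK4, the ubiquitin ligase TRAF6, the kinase MAP3K7 (TAK1) and its partner TAB2. Probes were listed for 8 of the 10 genes, of 18665 genes with a probe of 1 symbol, and 7 had a probe above background and were tested. IRAK3 had 2 probes that were not above background on any of the 8 arrays, and IRAK4 and TAB2 are named only.

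The cells were SW1353, an established line from a human chondrosarcoma, a tumour of cartilage, which stands in for chondrocytes here. All cells were transfected with siRNA, either a single QIAGEN siRNA against HDAC6, a cytoplasmic deacetylase that acts on tubulin (siHDAC6), or the AllStars non-targeting siRNA (siCon). Per the labels, transfection preceded IL-1alpha by 24 h and IL-1alpha was given for 6 h, or cells remained unstimulated. The methods add a serum-free night between transfection and stimulation, and a legend of the study gives a longer IL-1 time, so the exposure is not settled. The 4 groups siHDAC6 + IL-1, siCon + IL-1, siHDAC6 and siCon held 2 arrays each, which the methods describe as duplicate treatments. Whether the duplicates were independent experiments is not given in the sources used here, so each p-value is set against the spread of these arrays alone.

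IL-1 binds IL1R1, which then recruits IL1RAP, and the paired intracellular domains bind MYD88. MYD88 assembles IRAK4 with IRAK1 and IRAK2, which engage TRAF6. Ubiquitin chains built by TRAF6 are bound by TAB2 and bring in MAP3K7, which activates the IKK complex and the kinases upstream of JNK and p38. In cartilage this route drives the cytokines and proteases that degrade the matrix.

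Each array held 48803 probes, of which between 29.3% and 34.1% were detected, and the median signal lay between 60.3 and 67.2 units. The number of arrays limits the precision. HDAC6, the siRNA target, was lower with siHDAC6 by at least 3.0-fold with IL-1, where its probe was not well above background on either siHDAC6 + IL-1 array. Without IL-1 it was 2.53-fold lower, with its probe well above background on 1 of the 2 siHDAC6 arrays. NFKBIA, a classical IL-1 response gene, rose with IL-1 by 3.02 (log2) in siHDAC6 cells and by 3.01 in siCon cells. IL6, a cytokine induced by IL-1, measured 9.74 and 9.60 in siHDAC6 + IL-1 cells and 11.75 and 11.86 in siCon + IL-1 cells, a log2 difference of -2.14 (adjusted p = 0.000199). Its probe was not well above background without IL-1, so it was at least 25.6-fold higher with IL-1 in siHDAC6 cells and at least 117-fold in siCon cells, and the difference of the responses was -2.27 (adjusted p = 0.00555). CXCL8, a neutrophil chemokine, rose with IL-1 by 7.08 in siHDAC6 cells and 7.62 in siCon cells, and was lower with siHDAC6 under IL-1 (log2 -0.64, adjusted p = 0.0224), where NFKBIA differed by -0.24 (adjusted p = 0.252). Of 12 chondrocyte marker genes 6 were detected: SOX9, HAPLN1 and COL11A1 on 8 arrays, COL9A1 on 6, COL2A1 on 4 and COL11A2 on 2. ACAN, COL9A2, COMP, MATN3, SOX5 and SOX6 were not detected on any. Of 6 leukocyte markers 2 were detected (CD163 on 2 arrays and MS4A1 on 6), with PTPRC not detected on any. Of 3 endothelial markers 1 was detected, VWF on 7 arrays.

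The promoters of the 2 members that rose most with IL-1 are shown as a description of their sequence. The arrays measured transcript levels, and whether transcription or transcript stability changed was not tested. Windows of 300 bases, from 250 before to 50 after the annotated start, were taken from RefSeq on GRCh38.p14, and all 10 members had at least 1. The MYD88 window is chr3:38138411-38138710 and the IRAK2 window is chr3:10164669-10164968, both on the plus strand. Capitals mark the core of the interferon-stimulated response element, GAAANNGAAA, searched on both strands.
MYD88: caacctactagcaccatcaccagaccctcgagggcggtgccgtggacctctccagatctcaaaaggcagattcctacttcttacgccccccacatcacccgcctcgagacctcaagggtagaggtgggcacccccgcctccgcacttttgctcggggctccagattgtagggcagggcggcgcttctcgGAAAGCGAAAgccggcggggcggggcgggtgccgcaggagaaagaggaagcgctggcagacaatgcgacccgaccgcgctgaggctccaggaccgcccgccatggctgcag
IRAK2: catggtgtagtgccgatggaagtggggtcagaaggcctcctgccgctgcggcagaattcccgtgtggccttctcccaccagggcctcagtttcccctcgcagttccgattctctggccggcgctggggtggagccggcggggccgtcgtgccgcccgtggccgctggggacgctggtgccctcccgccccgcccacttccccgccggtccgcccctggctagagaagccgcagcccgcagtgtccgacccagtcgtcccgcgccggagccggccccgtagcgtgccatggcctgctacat
The MYD88 window held 1 such match, starting 61 bases before the start, and it was the sole match to this core in the members' windows. The core occurred in 3.574% of 35116 RefSeq promoter windows of this length. The κB consensus, also searched on both strands, had no match in either window and 1 match among the members, in a window of TAB2, against 5.909% of all windows. A match is a description of letters and not evidence of binding.

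Levels below are log2 normalised intensities, given for replicate 1 and then replicate 2 of a group. They can be compared between groups for 1 gene but not between genes, whose probes differ in brightness. A gene was called changed where its limma p-value, adjusted over all 11182 genes, was under 0.05. Shares of all genes are given at that cutoff. Counts at an unadjusted p under 0.05 have no such share beside them, as it was not computed.

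**Figure D1:**
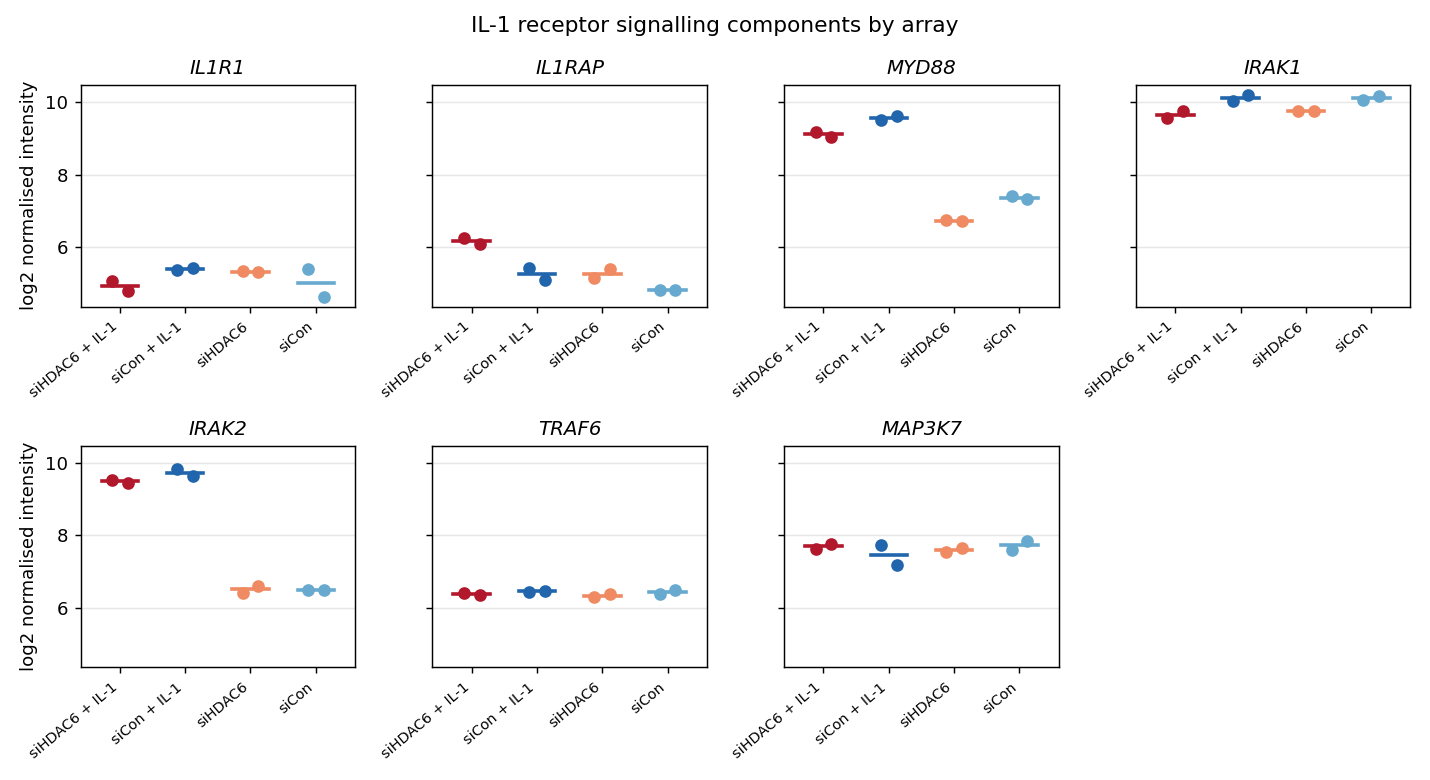
Log2 normalised intensity (y axis) of the 7 tested members on each array, by group (x axis), with points for arrays and lines for the mean of 2. IRAK2 and MYD88 sit higher in both IL-1 groups, MYD88 sits lower with siHDAC6 than with siCon under either condition, and IL1RAP is highest with siHDAC6 + IL-1, where it measured 6.24 and 6.07.

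IRAK2 and MYD88 rose with IL-1 whichever siRNA the cells carried, and IL1RAP rose with IL-1 in siHDAC6 cells. In siCon cells IL1RAP, the average of 2 probes, was not called (log2 0.44, adjusted p = 0.0677). There its probe detected on 7 arrays rose by 0.99 (adjusted p = 0.0187), and the probe detected on 3 differed by -0.11 (adjusted p = 0.738). The IL-1 responses of IL1RAP with siHDAC6 and with siCon were not called different (adjusted p = 0.519). In siHDAC6 cells 3 of 7 tested members were higher with IL-1 and 0 lower, where 5.99% of all genes were higher and 4.27% lower. In siCon cells 2 of 7 were higher and 0 lower, where 9.37% of all genes were higher and 11.2% lower. The RNA was of whole cultures, so a change within cells and a change in the share of cells that express a gene cannot be told apart. The median log2 fold change of the 7 members was 0.09 in siHDAC6 cells against -0.06 over all genes, and 0.38 in siCon cells against -0.09 over all genes. At an unadjusted p under 0.05, 0 members were lower with IL-1 in either case.

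IRAK2, a kinase that sustains signalling from the receptor complex, gave the widest range of group means among the members. It measured 9.55 and 9.45 in siHDAC6 + IL-1 cells, 9.84 and 9.64 in siCon + IL-1 cells, 6.42 and 6.61 in siHDAC6 cells, and 6.50 and 6.48 in siCon cells. The 4 stimulated arrays lay above the 4 unstimulated arrays with no overlap. The rise was 2.98 ± 0.12 (log2, SE) or 7.90-fold in siHDAC6 cells (adjusted p = 2.08e-06) and 3.25 ± 0.12 or 9.50-fold in siCon cells (adjusted p = 1e-06). Between siHDAC6 + IL-1 and siCon + IL-1 cells IRAK2 differed by -0.24 (95% confidence interval -0.52 to 0.03, adjusted p = 0.26), and between siHDAC6 and siCon cells by 0.03 (-0.25 to 0.30).

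MYD88, the adaptor shared by the IL-1 receptor and most Toll-like receptors, rose with IL-1 and was lower after HDAC6 depletion. Its levels were 9.19 and 9.04 in siHDAC6 + IL-1 cells, 9.53 and 9.63 in siCon + IL-1 cells, 6.75 and 6.71 in siHDAC6 cells, and 7.40 and 7.33 in siCon cells. No 2 groups overlapped, and the order was siHDAC6, siCon, siHDAC6 + IL-1 and siCon + IL-1 from lowest to highest. MYD88 rose with IL-1 5.22-fold in siHDAC6 cells (adjusted p = 4.02e-06) and 4.65-fold in siCon cells (adjusted p = 4.39e-06).

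MYD88 was 1.55-fold lower after HDAC6 depletion in unstimulated cells (log2 -0.63 ± 0.11, 95% confidence interval -0.88 to -0.39, adjusted p = 0.0195). With IL-1 it was 1.38-fold lower (log2 -0.47 ± 0.11, interval -0.71 to -0.22, adjusted p = 0.0378). The direction was the same in all 19 alternative settings for both, but the call with IL-1 was kept in 8 of them and in 0 of the 8 fits that left out 1 array, where adjusted p lay between 0.063 and 0.181. The unstimulated call was kept in 13 of 19 and in 4 of those 8, and it was lost without any 1 of the 2 siHDAC6 or 2 siCon arrays (adjusted p 0.0956 to 0.119).

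**Figure D2:**
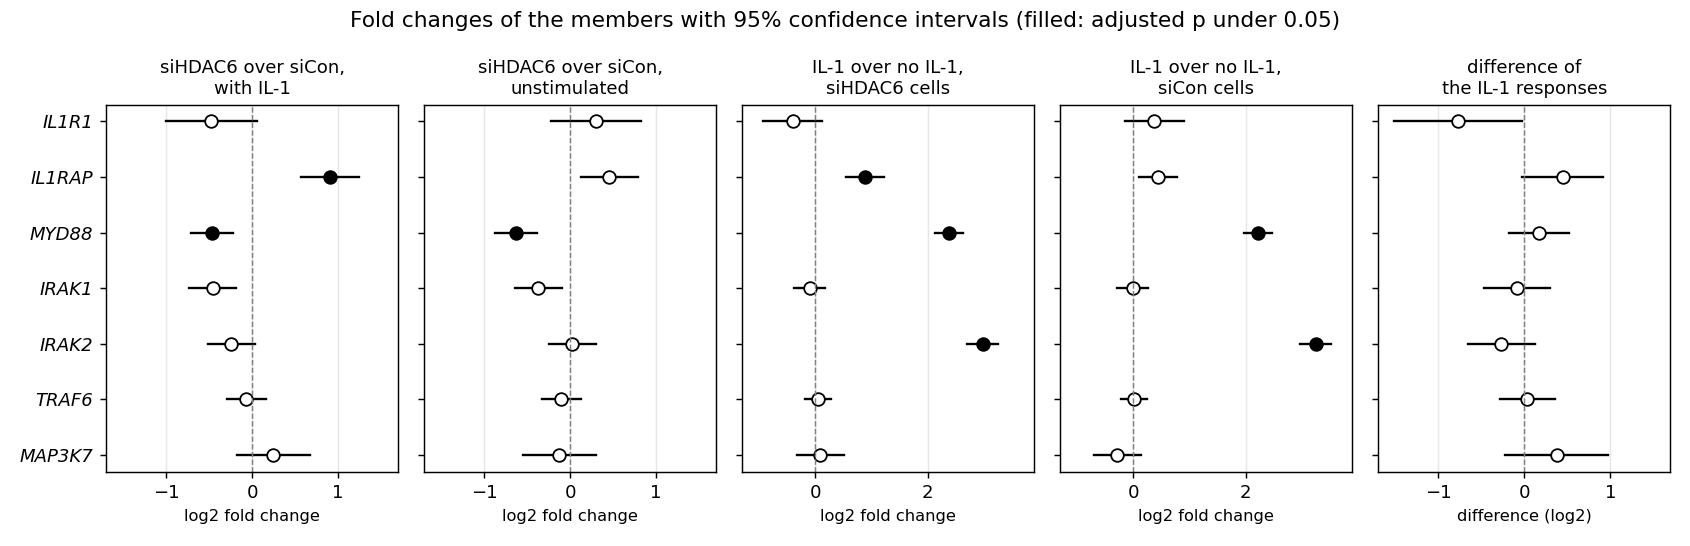
Log2 fold change (x axis, point) and 95% confidence interval (line) of each tested member in the 4 comparisons and in the difference between the IL-1 responses, with filled points for adjusted p under 0.05. IL1RAP was higher (0.91) and MYD88 lower (-0.47) with siHDAC6 under IL-1, and no member was called for the difference of the responses.

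HDAC6 depletion under IL-1 was accompanied by a higher level of 1 member, IL1RAP, and a lower level of 1, MYD88, of the 7 tested, where 3.65% of all genes were higher and 4.42% lower. Without IL-1 0 members were higher and 1, MYD88, was lower, against 1.64% and 2.41% of all genes. At an unadjusted p under 0.05 the counts were 1 higher (IL1RAP) and 2 lower (MYD88 and IRAK1), both with IL-1 and without. The median log2 fold change of the members was -0.24 with IL-1 and -0.10 without, against 0.03 and 0.01 over all genes. The 2 siHDAC6 comparisons set different arrays against each other. They share 1 fit of all 8 arrays with 1 spread per gene, so their p-values are not independent.

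Among the cell type markers, VWF, HAPLN1, CD163 and SOX9 had siHDAC6 arrays apart from siCon arrays in the same comparisons. With 2 arrays against 2, such a gap has an exact permutation p of 0.333, and the share of all genes with a gap was not counted. SOX9 differed by 0.30 with IL-1 (adjusted p = 0.163) and by -0.19 without (adjusted p = 0.428). VWF, the detected endothelial marker, measured 5.56 and 4.75 in siHDAC6 + IL-1 cells, 6.21 and 5.80 in siCon + IL-1 cells, 5.18 and 5.29 in siHDAC6 cells, and 6.54 and 6.51 in siCon cells. The unstimulated difference was called (log2 -1.29, adjusted p = 0.0326), CDH5 was not detected on any array and PECAM1 on 1. HAPLN1, a link protein of the cartilage matrix, was called higher with siHDAC6 under IL-1 (log2 0.72, adjusted p = 0.0128). It was the 1 called of 6 tested chondrocyte markers, where 3.65% of all genes were higher and 4.42% lower. HAPLN1 measured 6.71 and 6.54 in siHDAC6 + IL-1 cells and 5.98 and 5.82 in siCon + IL-1 cells. CD163, a macrophage marker, differed by -0.61 there (adjusted p = 0.0565), with no siHDAC6 + IL-1 array and 1 siCon + IL-1 array well above background. MS4A1, a B cell marker, differed by -0.08 there (adjusted p = 0.893). The part of such markers in the members' changes was not tested.

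IL1RAP, the accessory chain without which IL1R1 does not signal, was highest in siHDAC6 + IL-1 cells. It measured 6.24 and 6.07 there, 5.41 and 5.09 in siCon + IL-1 cells, 5.14 and 5.39 in siHDAC6 cells, and 4.81 and 4.81 in siCon cells. The siHDAC6 + IL-1 arrays lay above all others, the siCon arrays below all others, and the siCon + IL-1 and siHDAC6 arrays overlapped. With IL-1 it was 1.87-fold higher in siHDAC6 than in siCon cells (log2 0.91 ± 0.14, 95% confidence interval 0.57 to 1.24, adjusted p = 0.0114).

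IL1RAP rose with IL-1 in siHDAC6 cells by 1.85-fold (log2 0.89 ± 0.14, adjusted p = 0.00686). In siCon cells its difference with IL-1 was 0.44 ± 0.14 (adjusted p = 0.0677), and between siHDAC6 and siCon cells without IL-1 it was 0.46 ± 0.14 (adjusted p = 0.131). The call for siHDAC6 under IL-1 was kept in 15 of 19 settings and was lost without either siHDAC6 + IL-1 array (adjusted p = 0.0815 without replicate 1 and 0.0554 without replicate 2) or without siCon + IL-1 replicate 2 (0.0561), and in the fit of only the 4 arrays compared (0.0512). The IL-1 call in siHDAC6 cells was kept in 17 of 19, and lost without replicate 1 of siHDAC6 (0.0544) or of siHDAC6 + IL-1 (0.0587).

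The IL1RAP level averages 2 probes that differed. ILMN_1686884, listed against the transcript of the membrane-bound receptor chain, measured 7.27 and 6.83 in siHDAC6 + IL-1 cells, 5.93 and 5.61 in siCon + IL-1 cells, 5.69 and 5.98 in siHDAC6 cells, and 5.02 and 4.54 in siCon cells. It was detected on 7 arrays. ILMN_2357062, listed against a transcript of the soluble form, measured 5.21 and 5.32 in siHDAC6 + IL-1 cells, 4.89 and 4.57 in siCon + IL-1 cells, 4.59 and 4.81 in siHDAC6 cells, and 4.60 and 5.08 in siCon cells, and was detected on 3. The remaining probe, ILMN_1793870, was not detected on any array.

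Tested by itself, ILMN_1686884 was called in each comparison. It was higher with siHDAC6 by 1.28 (log2) under IL-1 (adjusted p = 0.0178) and by 1.05 without (adjusted p = 0.0486), and higher with IL-1 by 1.22 in siHDAC6 cells (adjusted p = 0.0126) and by 0.99 in siCon cells (adjusted p = 0.0187). ILMN_2357062 was not called in any of these (adjusted p 0.113 to 0.758). Which other transcripts of the gene each probe reads was not tested, so the probes do not separate the 2 forms.

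**Figure D3:**
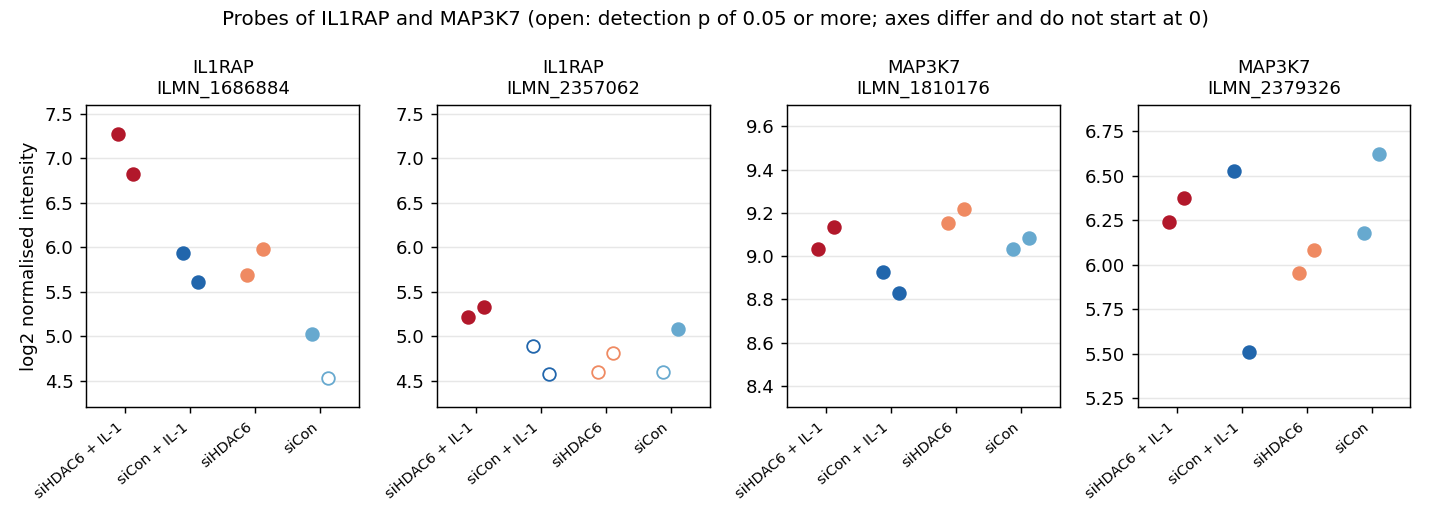
Log2 normalised intensity (y axis, range set per panel) of the IL1RAP and MAP3K7 probes on each array by group (x axis), with open points where the probe was not detected. IL1RAP probe ILMN_1686884 is highest with siHDAC6 + IL-1 (7.27 and 6.83), and MAP3K7 probe ILMN_2379326 has 1 low array in siCon + IL-1 (5.51).

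IL1R1, the chain that binds IL-1, was dim and was not called in any comparison. It measured 5.05 and 4.78 in siHDAC6 + IL-1 cells, 5.36 and 5.42 in siCon + IL-1 cells, 5.34 and 5.30 in siHDAC6 cells, and 5.40 and 4.63 in siCon cells. Its probe was detected on 6 of 8 arrays, 1 of 2 in both the siHDAC6 + IL-1 and siCon groups. With IL-1 it differed by -0.47 between siHDAC6 and siCon cells (95% confidence interval -1.0 to 0.05, adjusted p = 0.247), and the 2 siHDAC6 + IL-1 arrays lay below the 2 siCon + IL-1 arrays. A full separation of 2 arrays against 2 has an exact permutation p of 0.333.

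The IL-1 difference of IL1R1 in siCon cells depended on siCon replicate 2. It was 0.38 with both arrays (adjusted p = 0.29), 0.76 without replicate 1 (adjusted p = 0.0228) and -0.01 without replicate 2 (adjusted p = 0.978).

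IRAK1, the kinase that leaves the receptor complex to engage TRAF6, did not pass the test in any comparison. It measured 9.56 and 9.76 in siHDAC6 + IL-1 cells, 10.03 and 10.21 in siCon + IL-1 cells, 9.76 and 9.76 in siHDAC6 cells, and 10.07 and 10.19 in siCon cells. Every siHDAC6 array lay below every siCon array, with or without IL-1. The difference with siHDAC6 was -0.46 ± 0.12 with IL-1 (95% confidence interval -0.73 to -0.18, adjusted p = 0.0554) and -0.37 ± 0.12 without (-0.65 to -0.10, adjusted p = 0.132). It was called in 5 and in 4 of 19 alternative settings, such as the authors' log2 values (adjusted p = 0.00374 with IL-1 and 0.0187 without). With IL-1 its difference was -0.10 in siHDAC6 cells (-0.37 to 0.18) and -0.01 in siCon cells (-0.28 to 0.26).

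**Figure D4:**
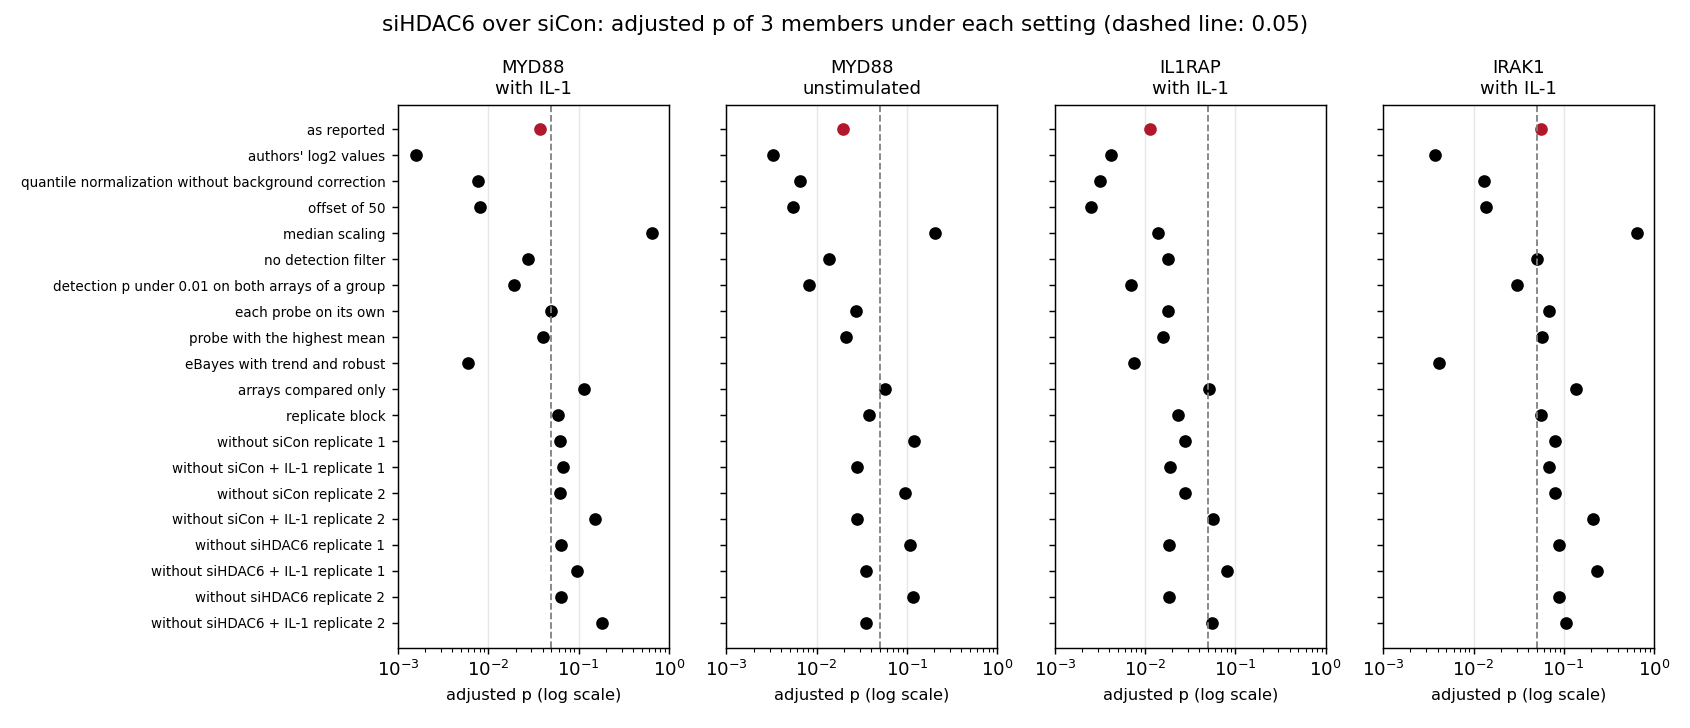
Adjusted p (x axis, log scale) of MYD88, IL1RAP and IRAK1 for siHDAC6 over siCon under each setting (rows), with the values as reported in red and a dashed line at 0.05. MYD88 with IL-1 passes 0.05 under no fit that leaves out 1 array, and IRAK1 with IL-1 lies on either side of the line depending on the setting.

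IRAK3, which in macrophages restrains the receptor complex, gave normalised values of 4.36 to 4.60 for ILMN_1661695 and 4.37 to 4.60 for ILMN_1913678 over the 8 arrays. Neither probe was well above background, so no fold change is given.

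TRAF6, the ubiquitin ligase, did not pass the test in any comparison. It measured 6.41 and 6.36 in siHDAC6 + IL-1 cells, 6.44 and 6.47 in siCon + IL-1 cells, 6.30 and 6.37 in siHDAC6 cells, and 6.39 and 6.50 in siCon cells. The differences with siHDAC6 were -0.07 with IL-1 (95% confidence interval -0.30 to 0.16) and -0.10 without (-0.33 to 0.12). With IL-1 they were 0.05 in siHDAC6 cells (-0.18 to 0.28) and 0.02 in siCon cells (-0.21 to 0.24). Of its 3 probes 2 were detected on all 8 arrays and ILMN_1700353 on none.

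MAP3K7, the kinase that phosphorylates the IKK complex, was not called in any comparison. It measured 7.64 and 7.76 in siHDAC6 + IL-1 cells, 7.73 and 7.17 in siCon + IL-1 cells, 7.55 and 7.65 in siHDAC6 cells, and 7.61 and 7.85 in siCon cells. The difference with siHDAC6 was 0.25 with IL-1 (95% confidence interval -0.18 to 0.67) and -0.13 without (-0.55 to 0.30). The low siCon + IL-1 array came from ILMN_2379326, which measured 6.53 and 5.51 in that group, while ILMN_1810176 measured 8.93 and 8.83. Without siCon + IL-1 replicate 1, the array at 7.73, the IL-1 difference in siCon cells was -0.56 (adjusted p = 0.0459). Without siCon + IL-1 replicate 2, the array at 7.17, it was -0.0036 (adjusted p = 0.993), against -0.28 with all arrays (adjusted p = 0.328).

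Whether HDAC6 depletion changed the size of a member's IL-1 response was tested as the response in siHDAC6 cells minus that in siCon cells. Of the 7 members 0 were called, where 0.116% of all genes were called in either direction. At an unadjusted p under 0.05 there was 1, IL1R1, with a difference of -0.78 (95% confidence interval -1.52 to -0.03, adjusted p = 0.472). Its probe was not detected on siCon replicate 2 (4.63) or siHDAC6 + IL-1 replicate 2 (4.78). Without siCon replicate 2 the IL-1 difference of IL1R1 in siCon cells was -0.01, against 0.38 with all arrays. The other 6 members ranged from -0.27 (IRAK2, interval -0.66 to 0.12) to 0.45 (IL1RAP, -0.02 to 0.92), with MYD88 at 0.17 (-0.18 to 0.51).

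The genes whose levels most resembled those of IRAK2, by Pearson r of log2 intensity over the 8 arrays, were OAS2 (r = 0.9992), RTP4 (0.9988), IFIT3 (0.9988), OAS3 (0.9987) and CCL2 (0.9985). OAS2, RTP4, IFIT3 and OAS3 are known as interferon-stimulated genes and CCL2 encodes a monocyte chemokine. The arrays fall into an IL-1 and a no IL-1 cluster, so r is a description of a shared step between them.

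Further components between the receptor and the IKK or MAPK kinases were counted over 22 tested of 26 listed genes. With IL-1 4 were higher and 1 lower in siHDAC6 cells (5.99% and 4.27% of all genes), and 4 were higher and 2 lower in siCon cells (9.37% and 11.2% of all genes). MAP3K8, a kinase upstream of ERK, was at least 7.24-fold higher with IL-1 in siHDAC6 cells, where it was not well above background before IL-1, and rose by 3.40 (log2) in siCon cells (adjusted p = 1.15e-06). The MAP3K8 probe was well above background on only 1 of the 2 siCon arrays. RNF31, the catalytic subunit of the linear ubiquitin ligase, rose by 0.65 in siHDAC6 cells and 0.89 in siCon cells. Its partner RBCK1 rose by 0.53 and 0.83. TIFA, an adaptor that binds TRAF6, was at least 1.12-fold higher in siHDAC6 cells, where it was not well above background before IL-1. It was among the 4 called higher in siCon cells, at 0.48. Its probe was not well above background on any siCon or siCon + IL-1 array, so the size of that difference was not measured. PELI2, a ubiquitin ligase of the IRAKs, fell by 0.77 in siHDAC6 cells and by 1.40 in siCon cells.

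With siHDAC6 4 of these 22 genes were higher and 0 lower under IL-1 (3.65% and 4.42% of all genes), and 1 was higher and 0 lower without (1.64% and 2.41% of all genes). ECSIT, an adaptor that binds TRAF6, measured 5.62 and 5.31 in siHDAC6 + IL-1 cells and 4.60 and 4.69 in siCon + IL-1 cells, where its probe was not well above background (adjusted p = 0.0392). MAPK8, which encodes the kinase JNK1, was higher by 0.62 (adjusted p = 0.0196) and by 0.63 (adjusted p = 0.0274). MAPK9 (JNK2) was higher by 0.43 and PELI1, another ligase of the IRAKs, by 0.48 under IL-1. At an unadjusted p under 0.05, 3 were lower under IL-1 and 2 without. The median over the 22 genes was -0.01 with IL-1 and 0.08 without.

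Inhibitors of the pathway were tested for 11 of 14 listed genes, of which IL-1 left 6 higher and 0 lower in siHDAC6 cells and 6 higher and 0 lower in siCon cells, with 0 lower at an unadjusted p under 0.05 in either, where 5.99% and 9.37% of all genes were higher. Their median log2 fold changes were 1.06 and 1.56, against -0.06 and -0.09 over all genes. ZC3H12A, an RNase that destroys cytokine transcripts, rose by 4.01 in siHDAC6 cells and 4.29 in siCon cells. TNFAIP3 (A20), which removes ubiquitin from TRAF6, rose by 3.93 and 4.23, and its partner TNIP1 rose by 1.78 and 1.74. The TNFAIP3 probe was well above background on only 1 of the 2 siCon arrays.

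With siHDAC6 0 of the 11 inhibitors were higher and 1 lower under IL-1 (3.65% and 4.42% of all genes), and none was called without IL-1. At an unadjusted p under 0.05, 1 was higher and 3 were lower under IL-1, with TRAFD1 at -0.52 (adjusted p = 0.0804) and ZC3H12A at -0.39 (adjusted p = 0.104) besides IL1RN, and 2 were higher without IL-1. IL1RN, the antagonist that occupies IL1R1 without signalling, was the 1 called. It measured 6.03 and 6.21 in siHDAC6 + IL-1 cells and 7.92 and 7.91 in siCon + IL-1 cells, a fall of 1.80 (adjusted p = 0.000225). It was not well above background on any unstimulated array, so the IL-1 rise was at least 2.19-fold in siHDAC6 cells and at least 7.89-fold in siCon cells. The difference of its IL-1 responses was -1.93 (adjusted p = 0.00701), the sole call among the 11 inhibitors.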

How the data were processed

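SW1353 RNA was profiled on Illumina whole-genome arrays of 1 colour. The authors deposited the unnormalised intensity of each probe together with its detection p-value, as well as log2 values that the methods describe as lumi output after a variance-stabilising transformation and robust spline normalisation. The deposited log2 values were used as an alternative and kept the rank order of the intensities on every array. Here intensities were background-corrected and quantile-normalised with neqc in limma 3.58.1 (R 4.3.3, statmod 1.5.0), with an offset of 16. Probe symbols came from GEO's annotation of the platform, an Illumina whole-genome array other than the version named in the methods, so which members have a listed probe rests on this table. In it 27578 probes had 1 symbol, 13 several and 21212 none. Probes of 1 symbol with detection p under 0.05 on at least 2 of 8 arrays were kept (14483) and averaged to 11182 genes. All 8 arrays entered 1 linear model with a coefficient per group and empirical Bayes moderation (4 residual and 3.79 prior degrees of freedom), and p-values were adjusted by Benjamini-Hochberg over all genes. "At least" folds set the brighter group's mean against the lowest signal well above background on the dim group's arrays, or the dim signal where that was higher. The scripts were tested on simulated data. Named were all members, HDAC6, NFKBIA and IL6 as checks, up to 4 called genes per list and comparison by absolute log2 fold change, and the 5 genes most like the member with the widest range. The members and lists were chosen with earlier results of these data known. Promoter windows and coordinates came from RefSeq (GRCh38.p14), and the motifs were chosen after the levels had been seen.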

Additional observations from a re-analysis of the deposited data

How the results depend on the processing

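The 2 IL-1 comparisons kept their counts of members within a factor of 1.5 under all 19 alternatives, and IRAK2 and MYD88 were called in each. For siHDAC6 under IL-1 the 2 calls became 1 with median scaling, 0 with only the arrays compared and 1 with the replicate block, rose to 3 (1 higher and 2 lower) with the authors' log2 values, quantile normalisation without background correction, an offset of 50, the stricter detection filter or a variance trend, and was 0 to 1 on leaving out 1 array. For siHDAC6 without IL-1 the 1 call became 2 with the authors' log2 values, quantile normalisation without background correction, an offset of 50, the stricter detection filter, each probe by itself, the brightest probe, or a variance trend, became 0 with median scaling and with only the arrays compared, and was 0 to 1 on leaving out 1 array. The difference of the IL-1 responses gave 0 members under all 18 alternatives run for it. In the alternative with each probe by itself, the probe with the smallest p stood for its gene in each comparison. That choice favours a call, and this alternative counts among the 19. Deviations of same-numbered arrays had correlations of -0.0431 to 0.0471 between groups over all genes. These correlations do not settle whether same-numbered arrays came from 1 experiment. With the replicate block MYD88 under IL-1 had adjusted p = 0.0585. Over all genes, siHDAC6 under IL-1 gave 408 higher and 494 lower calls, against 141 and 95 with median scaling and 872 and 820 with the authors' values. Without IL-1 these were 183 and 270, 31 and 149, and 529 and 595. IL-1 in siHDAC6 cells gave 670 and 478, 432 and 97, and 837 and 1071. IL-1 in siCon cells gave 1048 and 1252, 552 and 904, and 1174 and 1917. The difference gave 1 and 12, 5 and 8, and 45 and 119. The fewest calls on leaving out 1 array were 180 with IL-1 and 109 without for siHDAC6, 590 and 1281 for IL-1 in siHDAC6 and siCon cells, and 0 for the difference. The cause of these shifts was not tested. Dim probes such as those of IL1R1 and IRAK3 limit what could be measured.

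The sign of some log2 differences changed under an alternative, in each case for a value that was not called under either setting. With median scaling TRAF6 stood at -0.22 for IL-1 in siCon cells and 0.11 for siHDAC6 under IL-1, IRAK2 at -0.065 for siHDAC6 in unstimulated cells, and the IRAK1 responses differed by 0.11. With no detection filter TRAF6 was -0.026 for IL-1 in siCon cells. With the brightest probe TRAF6 was -0.061 there, and MAP3K7 was -0.10 for IL-1 in siHDAC6 cells and 0.13 for siHDAC6 without IL-1. With the authors' values the difference of the MYD88 responses was -0.029. On leaving out 1 array, IL-1 in siHDAC6 cells ranged from -0.19 to 0.0029 for IRAK1, and IL-1 in siCon cells from -0.0090 to 0.76 for IL1R1, -0.098 to 0.077 for IRAK1 and -0.039 to 0.069 for TRAF6. For siHDAC6 under IL-1 MAP3K7 ranged from -0.029 to 0.53, and without IL-1 IL1R1 ranged from -0.083 to 0.69 and IRAK2 from -0.071 to 0.12. The difference of the responses ranged from -0.18 to 0.014 for IRAK1 and from -0.018 to 0.090 for TRAF6.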

Other observations

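Receptors and adaptors related to the IL-1 receptor by their TIR domain were tested for 13 of 19 listed genes. With IL-1 6 were higher and 0 lower in siHDAC6 cells (5.99% and 4.27% of all genes), and 5 were higher and 1 lower in siCon cells (9.37% and 11.2% of all genes). IL18R1, a chain of the IL-18 receptor, rose by 2.44 (log2) in siHDAC6 cells and by 2.52 in siCon cells. IL18RAP, its partner chain, was at least 2.44-fold higher in siHDAC6 cells and rose by 0.68 in siCon cells (adjusted p = 0.038). The difference of the IL18RAP responses was not called (adjusted p = 0.413). The IL18R1 and IL18RAP probes were each well above background on only 1 of the 2 siCon arrays. TLR7, a sensor of single-stranded RNA, was at least 5.29-fold higher in siHDAC6 cells and at least 4.96-fold in siCon cells, and TLR3, a sensor of double-stranded RNA, was at least 2.90-fold and at least 4.15-fold higher. The adaptor of TLR3, TICAM1, rose by 1.02 and 1.21. With siHDAC6 under IL-1 0 were called higher and 0 lower (3.65% and 4.42% of all genes). At an unadjusted p under 0.05, 4 were higher and 2 lower. TLR4, the receptor of lipopolysaccharide, was lower with siHDAC6 in unstimulated cells by 0.58 (log2 -0.58, adjusted p = 0.0484).

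Of 5 tested TRAF genes other than TRAF6, 1 was higher with IL-1 in siHDAC6 cells and 2 in siCon cells, where 5.99% and 9.37% of all genes were higher. TRAF3, a TRAF of the TNF receptor and Toll-like receptor routes, was at least 1.31-fold higher in siCon cells. Its probe was well above background on only 1 of the 2 siCon + IL-1 arrays there. TRAF3 was not called in siHDAC6 cells (adjusted p = 0.079), and the difference of the responses was not called either (adjusted p = 0.966). TRAF1, which binds TNF receptors together with TRAF2, was at least 4.12-fold higher in siHDAC6 cells and at least 5.16-fold in siCon cells. Of the 6 tested chondrocyte markers 1 was called lower with IL-1 under either siRNA and 0 higher. Of all genes 4.27% were lower in siHDAC6 cells and 11.2% in siCon cells. The marker called was SOX9, a transcription factor of chondrocytes. It differed with IL-1 by log2 -0.67 in siHDAC6 cells (adjusted p = 0.0106) and -1.16 in siCon cells (adjusted p = 0.000356).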
